A study of Mus musculus with 2 samples.

Results

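The genes described here are 32 genes of cholesterol synthesis, transport and storage together with Star, measured in whole mouse hearts after myocardial infarction. All probe sets annotated to 1 of these gene symbols alone were taken, which gave 61 probe sets for 29 genes, out of 34945 probe sets with a single symbol for 18193 genes. Acat2, Nr1h2 and Soat1 had none and were not analysed here. The genes were chosen by a model that already knew the values compared here, among them the high value of Star after infarction. The differences below therefore describe these genes and are no test of the group.

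Hearts came from male C57BL/6J mice, 10 weeks old at surgery. In the infarct group the left anterior descending coronary artery was ligated for good, and in the sham group the operation left the artery open. Hearts were taken after 3 days. A mixture of RNA from 3 mice per group was hybridised to 1 GeneChip Mouse Genome array, so that there were 2 arrays in all. Spread between animals therefore cannot be known, the groups cannot be tested against each other, and the values below stand without a replicate error. The whole heart was used, and the labels do not separate the infarct from the surviving muscle. Transcripts of the cardiomyocyte markers were bright in both pools (the 9 genes averaged 14.4 in sham and 14.3 in infarct on the log2 scale).

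Values are log2 RMA values (robust multi-array average), and each difference is the infarct value minus the sham value, so that a difference of 1 is 2-fold. For each gene the probe set with the highest mean of the arrays was used, and a value under the array median of 6.36 is called dim. Across the array, probe sets of 1 gene disagreed in their difference with a pooled SD of 0.22 (4989 genes with at least 2 probe sets whose mean reached the median). That SD covers the probes and not the animals. The zero of the scale was uncertain. The mean difference of 8 housekeeping genes was 0.48, with single genes from 0.0099 (Tbp) to 1.12 (Gusb). The others were Polr2a (0.20), B2m (0.27), Pgk1 (0.36), Hprt (0.52), Ywhaz (0.55) and Actb (0.82, but -0.62 by its other probe set). A further 4 listed genes had no probe set of their own. By contrast, 18 hybridisation control probe sets gave a mean of -0.32, and 24 poly-A control probe sets gave 0.057. Centring on the housekeeping genes subtracts 0.48 from every difference, and centring on the hybridisation controls adds 0.32. In total, 9 of the 29 genes kept their sign in the deposited values and under all 6 scalings tried. These were Star, Stard4, Idi1, Sqle, Cyp51, Lrp8 and Ch25h, which were higher in the infarct pool, and Fdft1 and Stard3, which were lower.

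Cells make cholesterol from acetyl-CoA, first through mevalonate to farnesyl diphosphate and then through squalene and lanosterol. The transcription factor SREBP2 switches on most of these enzymes when membranes of the endoplasmic reticulum run short of sterol, a step for which SCAP escorts the factor and INSIG proteins hold it back. Excess sterol is instead esterified, oxidised or exported, the latter by transporters that the oxysterol receptors LXRα and LXRβ induce. STAR carries cholesterol into mitochondria and is best known from the adrenal gland and the gonads, where this step limits the rate of steroid synthesis.

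After infarction 3 of the 29 genes, Star, Ch25h and Lrp8, were higher by 2-fold or more, and 0 were lower by that much. Over all genes on the array, 2.57% were at least 2-fold higher and 0.874% at least 2-fold lower. Among genes whose mean over both arrays reached the array median, as it did for all 29, these shares were 3.61% and 1.22%. Star and Lrp8 were under that median in sham and reached it only through their infarct values. Since this contrast was known when the genes were chosen, nothing is read from the difference between 3 of 29 and these shares. By probe set, 6 of 61 passed 2-fold upward and 0 downward, against 2.23% and 0.758% of all probe sets with a single symbol. By the probe set brightest in sham, Star differed by 0.79 and Lrp8 by 0.22, both under 2-fold. The median difference of the 29 genes was 0.15, against -0.025 over all genes. Centring on the housekeeping genes moved both alike, to -0.33 and -0.51. In the deposited values 15 of 29 (51.7%) lay within 0.25 of 0, a share near the 51.3% of genes whose mean reached the array median. In whole hearts, a change in the number of cells that express a gene and a change in RNA per cell cannot be told apart.

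**Figure D1:**
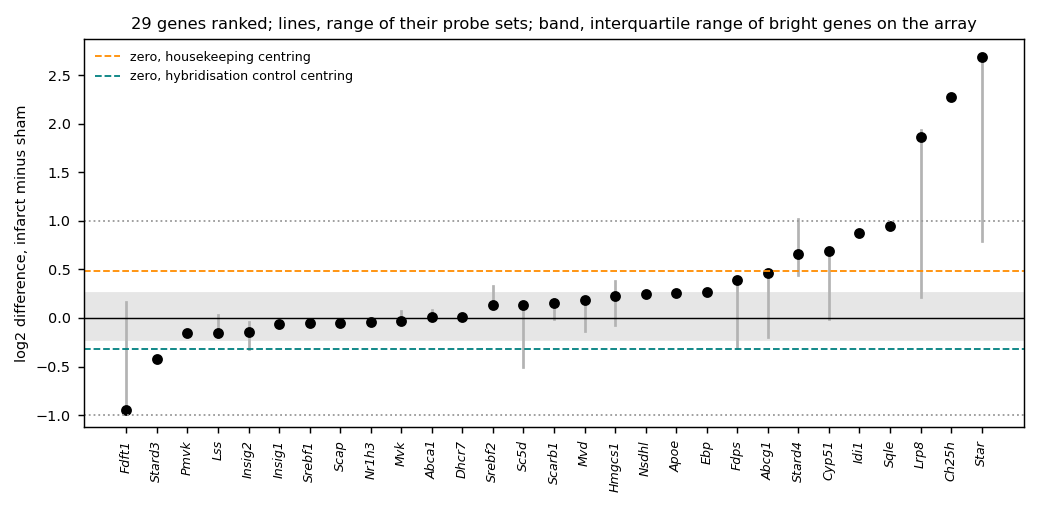
Log2 difference (infarct minus sham) of the 29 genes by their representative probe set (points), with the range over all probe sets of the gene (grey lines), the interquartile range of genes whose mean reached the array median (band), 2-fold differences (dotted) and the zero after centring on housekeeping genes (orange) or hybridisation controls (green). Star (2.69), Ch25h (2.27) and Lrp8 (1.86) lay above the upper dotted line, and the 20 genes between the dashed lines change sign with the scaling.

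Star, which encodes the steroidogenic acute regulatory protein, had the largest difference of the genes. Its representative probe set read 6.10 in sham and 8.79 in infarct, a difference of 2.69 (6.43-fold), which ranked 9 from the top among 18193 genes. The remaining probe sets read 6.21 and 8.06 (difference 1.85), and 6.42 and 7.21 (difference 0.79). All 3 probe sets were thus higher in the infarct pool, but by amounts from 0.79 to 2.69, a span well above the SD between probe sets of a gene (0.22). In sham all 3 lay close to the array median, 2 of them under it, so that the fold rests on a dim value. Centring on the housekeeping genes left a difference of 2.20 at the representative probe set, the lowest over the scalings tried.

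By their representative probe sets, the other carriers with a START domain, the lipid-binding fold that STAR shares, differed by less than Star. Stard4, which encodes a soluble cytosolic sterol carrier, read 7.59 in sham and 8.24 in infarct, a difference of 0.66. Its other probe sets differed by 1.02 and 0.45, so that all 3 were higher in the infarct pool and 1 passed 2-fold. Stard3, which encodes a carrier on late endosomes, was measured by a single probe set at 9.27 in sham and 8.84 in infarct (difference -0.42). By the representative probe sets, the order does not depend on the zero, with Star 3.11 and Stard4 1.08 above Stard3 in their differences. The order of Star and Stard4 does depend on the probe set, since a probe set of Star gave 0.79, under the 1.02 of Stard4. In a separate list of further START genes, none of 9 passed 2-fold as deposited. Over all genes, 2.57% were at least 2-fold higher and 0.874% at least 2-fold lower. The median of the 9 START genes was -0.15 (0.16 with the zero of the hybridisation controls). Their extremes were Stard5 (0.31, with its lowest probe set at -0.074) and Pctp (0.20) at the top, and Stard10 (-0.92, or -1.40 with the zero of the housekeeping genes) and Stard8 (-0.47) at the bottom.

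Genes that act after STAR in steroid hormone synthesis were mostly dim in both pools, and none of those listed as markers passed 2-fold. Cyp11a1, which encodes the enzyme that cleaves the cholesterol side chain in mitochondria, read 4.57 in sham and 4.53 in infarct, under the array median in both pools, and its 3 probe sets differed by -0.24 to 0.36. All 9 markers of steroid-making tissue lay between -0.25 and 0.22, and 7 of them were dim in both pools. The pool means of the 9 markers were 5.66 in sham and 5.62 in infarct. In a wider list of 14 steroidogenesis genes, 1 was at least 2-fold higher and 0 as much lower (2.57% and 0.874% of all genes). That gene was Tspo, which encodes a protein of the outer mitochondrial membrane, and it read 10.25 in sham and 11.45 in infarct (difference 1.20), with its 3 probe sets between 1.07 and 1.20, and it was under 2-fold after centring on the housekeeping genes. Acbd3, which encodes a Golgi protein reported to bind TSPO, followed at 0.62, and Hsd11b1 (-0.62, or -1.10 with the zero of the housekeeping genes) and Hsd17b4 (-0.43) were the lowest. Macrophage markers lay above 0 in 14 of 14 cases (10 once the housekeeping genes were set to 0), against 45.7% of all genes. At least 2-fold higher were 7 of these markers (1 with that zero), against 2.57% of all genes as deposited. Their pool means were 8.94 in sham and 9.83 in infarct. Their part in the differences of Star, Tspo and the genes below was not tested.

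**Figure D2:**
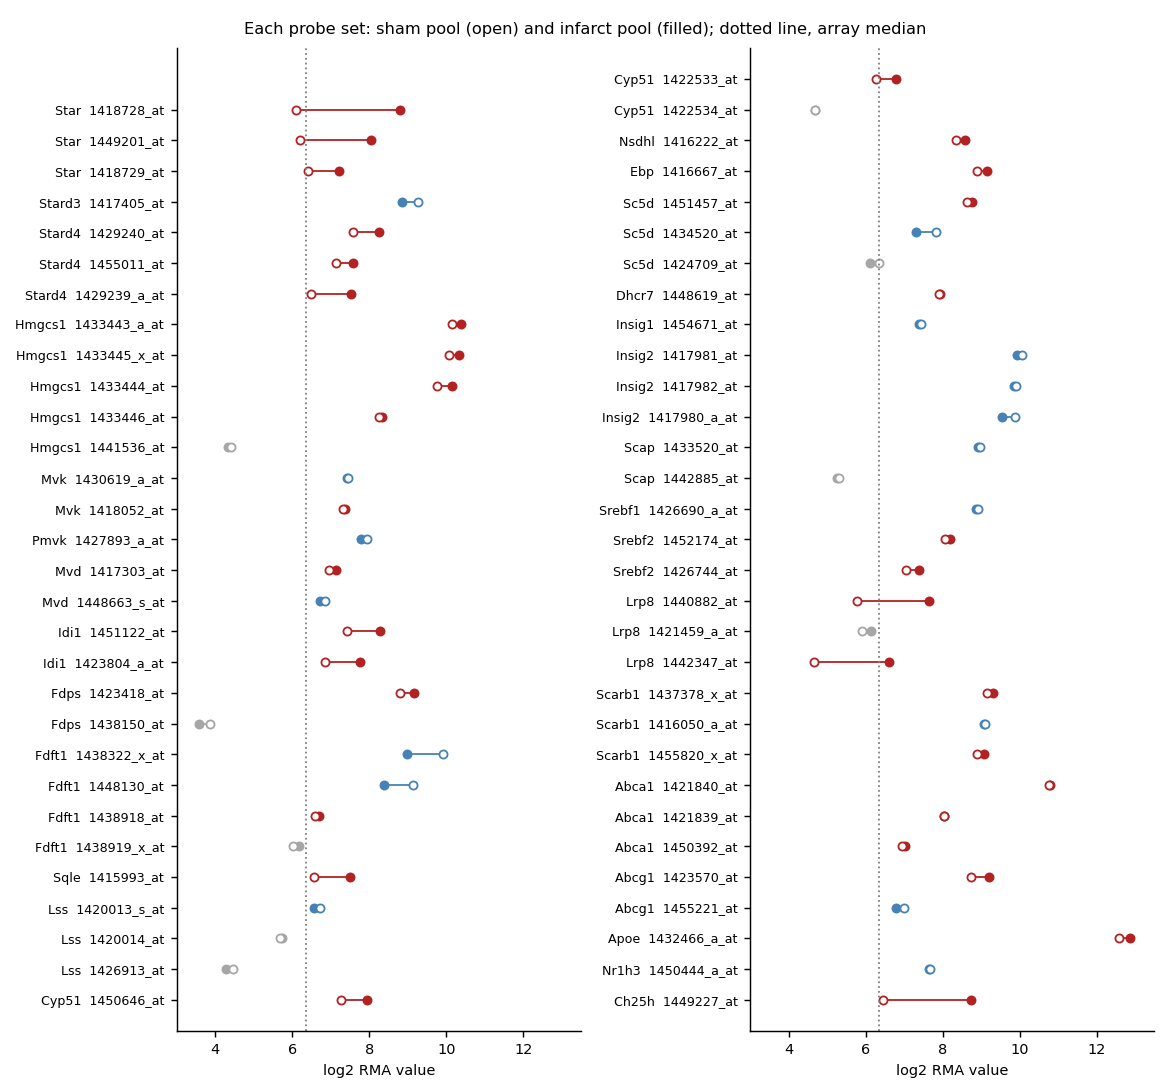
Log2 RMA value of each of the 61 probe sets in sham (open circles) and infarct (filled circles), in red where the infarct value was higher, in blue where it was lower and in grey where both were under the array median (dotted line). The longest lines were those of Ch25h, of 2 of the 3 probe sets of Star and of 2 of the 3 of Lrp8, and the probe sets of Fdft1 ran in opposite directions.

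Among the enzymes of synthesis, 14 were measured. None passed 2-fold as deposited, where 2.57% of all genes were at least 2-fold higher. With the zero of the hybridisation controls 3 were higher by that much, and with that of the housekeeping genes 1, Fdft1, was lower. Their median difference was 0.21. As deposited, 10 of 14 lay above 0, against 45.7% of all genes and 49.6% of those whose mean reached the array median. That count was 3 with the zero of the housekeeping genes and 13 with that of the hybridisation controls, centrings that move all genes alike. In the mevalonate branch, Idi1, which encodes the isomerase of isopentenyl diphosphate, had the largest difference. It read 7.41 in sham and 8.28 in infarct (difference 0.87, 1.83-fold), and its second probe set gave 0.91. No other gene of this branch kept its sign under all scalings. Fdps, which encodes farnesyl diphosphate synthase, read 8.79 and 9.17 (0.39), while its other probe set was dim and differed by -0.31. Hmgcs1, which encodes the cytosolic HMG-CoA synthase, read 10.15 and 10.38 (0.23), and its 5 probe sets ran from -0.072 to 0.38. The kinase and decarboxylase genes that turn mevalonate into isopentenyl diphosphate differed least: Mvd by 0.19 (6.96 and 7.15), Mvk by -0.026 (7.44 and 7.42) and Pmvk by -0.16 (7.95 and 7.79). The second probe sets of Mvd and Mvk had the opposite sign (-0.13 and 0.076).

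The sterol branch held both the highest and the lowest of the enzyme genes, at neighbouring steps. Fdft1 encodes squalene synthase, which joins farnesyl diphosphate into squalene, the first step committed to sterols. It read 9.93 in sham and 8.98 in infarct, a difference of -0.94 (1.92-fold lower), which ranked 207 from the bottom among all genes. Its second brightest probe set read 9.13 and 8.39 (-0.74), whereas dimmer ones gave 0.11 and 0.17. The brightest of these probe sets is of a kind that can bind several transcripts, and without it the difference of Fdft1 was -0.74. Sqle encodes squalene epoxidase, which takes the product of FDFT1 onward. Its single probe set read 6.55 in sham and 7.50 in infarct, a difference of 0.95 (1.93-fold higher). Sqle thus lay 1.89 above Fdft1 in its difference and Idi1 1.82 above it, whichever zero is used (these pairs were picked after their values were seen).

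Later steps of the sterol branch differed less. Cyp51, which encodes lanosterol demethylase, read 7.25 in sham and 7.95 in infarct (0.69), its second probe set gave 0.51, and one that was dim in both pools gave -0.013. Ebp, which encodes a sterol isomerase, read 8.88 and 9.15 (0.27), and Nsdhl, which encodes a sterol dehydrogenase, read 8.34 and 8.59 (0.25), each by a single probe set. Sc5d, which encodes a sterol desaturase, was inconsistent between its probe sets. The brightest read 8.63 and 8.76 (0.14), but another bright one read 7.81 and 7.31 (-0.51). Dhcr7, which encodes the reductase of the last step of 1 arm of the pathway, read 7.91 and 7.92 (0.015). Lss, the gene of lanosterol synthase, read 6.72 and 6.56 (-0.16), by a probe set that can bind several transcripts. Its other probe sets were dim in both pools and gave 0.035 and -0.20. The sign of Ebp, Nsdhl, Sc5d, Dhcr7 and Lss turned with the zero of the scale. Of 6 further genes of sterol and isoprenoid synthesis, none passed 2-fold, against 2.57% of all genes higher and 0.874% lower by that much. Their median was 0.031. Msmo1, which encodes the demethylase acting after CYP51, was the highest (7.79 and 8.44, difference 0.64, and 0.073 by its other probe set), followed by Lbr (0.47), which encodes a nuclear envelope protein with sterol reductase activity. The lowest were Hsd17b7 (-0.39) and Tm7sf2 (-0.26).

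**Figure D3:**
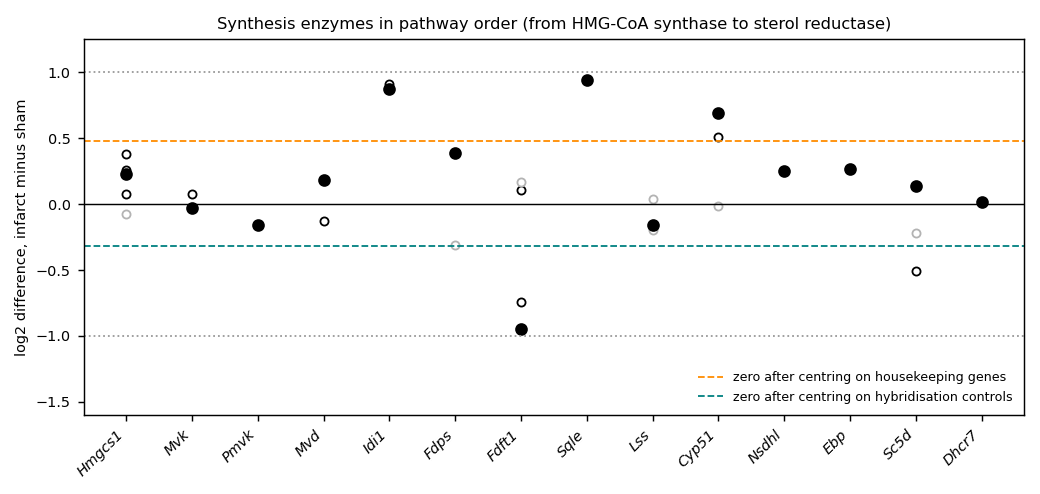
Log2 difference (infarct minus sham) of the 14 measured synthesis enzymes in the order of the pathway, with the representative probe set filled, other probe sets open and those dim on both arrays in grey. Idi1 (0.87), Sqle (0.95) and Cyp51 (0.69) lay above and Fdft1 (-0.94) below both dashed lines, which mark the zero after centring on housekeeping genes (orange) and on hybridisation controls (green), and the enzymes between those lines change sign with the scaling.

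SREBP2 acts at sterol regulatory elements, commonly beside a CCAAT box bound by NF-Y. The 250 bases before each RefSeq start site (build GRCm38.p6) were searched on both strands for the letters TCACNCCAC, a form of the sterol regulatory element in which N is any base, and for CCAAT. Windows were at hand for 25 of the 32 genes, with Star, Stard4, Fdps, Fdft1, Sqle, Scarb1 and Abcg1 not searched here. Of 12 enzyme genes with a window, 11 held CCAAT in at least 1 window (91.7%), against 6 of the 13 remaining genes (46.2%) and 37.5% of 27025 genes. The element itself stood in 2 of 38 windows (5.26%), those of Hmgcs1 and Stard3, against 1.05% of 32851 windows. Neither of these genes was among those with the larger positive differences, whereas the windows of Idi1 and Cyp51, with differences of 0.87 and 0.69, held CCAAT and not this element. Also searched were CACGTG (E-box), in 5 of 38 windows (13.2%, against 6.02% of all windows), and AAGGTCA (SF-1 site), in 3 of 38 (7.89%, against 4.08%). A match of letters is a description of the window and does not show binding, and its absence says nothing of the factor. The windows printed here are those of Hmgcs1, for the element, Idi1 and Cyp51, as the enzymes with the larger positive differences, and Ch25h, whose window held neither TCACNCCAC nor CCAAT. They run from the 5′ to the 3′ end of the gene's strand and end at the base before the start site, with capitals marking TCACNCCAC and CCAAT or its complement ATTGG. Their positions are chr13:119690101-119690350 (plus strand), chr13:8885356-8885605 (plus), chr5:4104698-4104947 (minus) and chr19:34475149-34475398 (minus). The element of Hmgcs1, TCACCCCAC, begins 137 bases before the start site.
Hmgcs1: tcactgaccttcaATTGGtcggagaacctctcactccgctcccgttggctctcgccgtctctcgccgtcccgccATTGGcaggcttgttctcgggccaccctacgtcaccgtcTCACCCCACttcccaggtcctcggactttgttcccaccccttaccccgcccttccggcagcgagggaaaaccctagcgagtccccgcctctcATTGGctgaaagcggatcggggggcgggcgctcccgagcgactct
Idi1: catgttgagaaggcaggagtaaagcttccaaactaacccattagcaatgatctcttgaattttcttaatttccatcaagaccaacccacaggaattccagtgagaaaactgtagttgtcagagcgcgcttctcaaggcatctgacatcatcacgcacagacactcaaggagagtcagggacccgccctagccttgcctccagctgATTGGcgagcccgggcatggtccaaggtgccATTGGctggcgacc
Cyp51: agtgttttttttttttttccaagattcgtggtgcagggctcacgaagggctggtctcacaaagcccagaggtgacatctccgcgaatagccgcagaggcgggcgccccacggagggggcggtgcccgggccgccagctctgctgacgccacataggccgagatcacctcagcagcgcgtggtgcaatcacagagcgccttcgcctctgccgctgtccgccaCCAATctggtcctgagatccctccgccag
Ch25h: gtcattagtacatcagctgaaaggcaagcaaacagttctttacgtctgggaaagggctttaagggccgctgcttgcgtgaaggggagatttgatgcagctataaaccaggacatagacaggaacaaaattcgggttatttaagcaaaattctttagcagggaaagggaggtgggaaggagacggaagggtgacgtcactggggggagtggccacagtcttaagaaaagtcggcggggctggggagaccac

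The genes that control SREBP differed little between the pools. Srebf2, which encodes SREBP2, read 8.05 in sham and 8.18 in infarct (0.13), with 0.33 by its other probe set. Srebf1, which encodes the related factor of fatty acid synthesis, read 8.92 and 8.86 (-0.056). Insig1, itself a classical SREBP target and a retention factor of the complex, read 7.45 and 7.38 (-0.062). Insig2 read 10.07 and 9.93 (-0.14), with its 3 probe sets between -0.32 and -0.041, and Scap read 8.98 and 8.93 (-0.051). Each of these 5 genes changed sign under some scaling, so that no direction is given for them. Sqle lay 1.01 above Insig1 in its difference, whichever zero is used, a pair picked after its values were seen. In a separate list of 5 genes of SREBP processing and reductase turnover, all were above 0 (0 after centring on the housekeeping genes), against 45.7% of all genes. The highest were Erlin1 (0.45) and Erlin2 (0.30). The lowest were Mbtps2 (0.026), which encodes a protease that releases SREBP, and Syvn1 (0.17).

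Of the lipoprotein receptors, Lrp8 was among those at least 2-fold higher and Scarb1 was not. Lrp8 encodes a receptor for apolipoprotein E and reelin of the low density lipoprotein receptor family, best known from the brain. It read 5.78 in sham, a dim value, and 7.64 in infarct, a difference of 1.86 (3.63-fold) that ranked 75 from the top. A second probe set went from 4.67 to 6.60 (1.94), but the third read 5.91 and 6.13 (0.22), dim in both pools. Scarb1, which encodes the receptor that takes up cholesteryl esters from high density lipoprotein, read 9.16 and 9.31 (0.15), with its probe sets between -0.014 and 0.20. In the separate list of transport and storage genes, Vldlr was the 1 gene of 14 at least 2-fold lower, against 0.874% of all genes. At least 2-fold higher were 0 (1, Lipa at 1.01, with the zero of the hybridisation controls), against 2.57% of all genes as deposited. Vldlr encodes the very low density lipoprotein receptor. It read 12.56 in sham and 11.52 in infarct (-1.04, under 2-fold after centring on the hybridisation controls), and its 6 probe sets ran from -1.56 to -1.04. Lrp8 and Vldlr encode receptors of the same family and their differences lay 2.90 apart, a pair picked after its values were seen. Also lower was Mylip (-0.51), which encodes a ubiquitin ligase that degrades these receptors. The highest of the list were the lysosomal genes Lipa (8.72 and 9.41, difference 0.69), which encodes the lipase of lysosomal cholesteryl esters, and Npc2 (0.52, with its lowest probe set at -0.015), which encodes a lysosomal sterol carrier. The list had a median of -0.12, with 6 of 14 above 0 (42.9%, against 45.7% of all genes). That count was 2 with the zero of the housekeeping genes and 10 with that of the hybridisation controls.

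Genes of sterol export differed by less than 2-fold, also with either zero. Abca1, which encodes the transporter that loads cholesterol onto lipid-poor apolipoprotein A-I, had the same value in both pools to within 0.084 by each of its 3 probe sets, with 10.77 and 10.78 at the brightest. Abcg1, which encodes the transporter that loads high density lipoprotein, read 8.73 in sham and 9.19 in infarct (0.47), but its other bright probe set read 6.99 and 6.79 (-0.19). Apoe, which encodes a lipoprotein ligand that macrophages secrete in quantity, read 12.59 and 12.85 (0.26). Nr1h3, the gene of LXRα, read 7.68 and 7.64 (-0.044). All 4 genes turned negative after centring on the housekeeping genes and positive after centring on the hybridisation controls.

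Ch25h encodes cholesterol 25-hydroxylase, which makes 25-hydroxycholesterol and is induced in macrophages by interferon and by Toll-like receptor ligands. Its single probe set read 6.46 in sham and 8.74 in infarct, a difference of 2.27 (4.84-fold) that ranked 23 from the top and ran from 1.79 to 2.59 over the scalings. The sham value was only just above the array median. Other genes of oxysterol and bile acid metabolism were listed apart, and none of 7 passed 2-fold as deposited. Over all genes, 2.57% were at least 2-fold higher and 0.874% at least 2-fold lower. Cyp7b1, whose enzyme acts on 25-hydroxycholesterol in turn, read 6.41 and 6.95 (0.54), and Gpr183, which encodes the receptor of the oxysterols that follow, read 6.57 and 7.02 (0.46), but each had a probe set below 0 (-0.062 and -0.18). Cyp27a1, which encodes the mitochondrial 27-hydroxylase, read 9.30 in sham and 8.48 in infarct (-0.82, and -1.30 after centring on the housekeeping genes), while its other probe set gave 0.054, and Osbp differed by -0.34. The differences of Ch25h and Cyp27a1, both of which make side chain oxysterols, lay 3.09 apart, a pair picked after its values were seen.

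**Figure D4:**
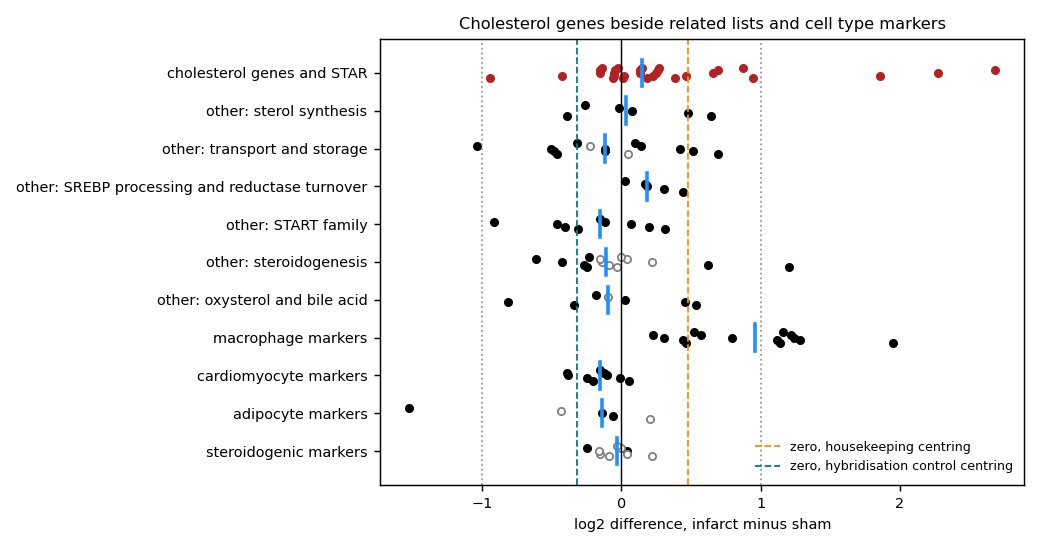
Log2 difference (infarct minus sham) of each gene of the cholesterol group (red), of related pathway lists and of cell type markers (black), with genes dim in both pools open, medians in blue, 2-fold differences dotted and the zero after centring on housekeeping genes (orange) or hybridisation controls (green) dashed. The medians were 0.15 for the cholesterol group and 0.96 for macrophage markers, which turn to -0.33 and 0.48 with the zero of the housekeeping genes, and -0.035 for steroidogenic markers, which turns to 0.28 with that of the hybridisation controls.

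Across the 55 genes of the related pathway lists, 1 was at least 2-fold higher (Tspo) and 1 at least 2-fold lower (Vldlr), against 2.57% and 0.874% of all genes. With the zero of the housekeeping genes these counts were 0 and 4, and with that of the hybridisation controls 2 and 0. Their median was -0.088, with 24 of 55 above 0 (43.6%, against 45.7% of all genes). Within the 29 genes themselves, agreement between probe sets was uneven. Of the 14 genes with at least 2 bright probe sets, 8 had all of these on the same side of 0 (57.1%, against 69.1% of all such genes), and the pooled SD between them was 0.38, above the 0.22 of all genes. Idi1, with 0.87 and 0.91, was the closest of those with a larger difference. Star (0.79 to 2.69) and Fdft1 (-0.94 to 0.11) were the widest of the 14. These 2 genes weigh most in that SD, so it does not describe the others.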

How the data were processed

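Total RNA of whole hearts was labelled and hybridised by the authors to GeneChip Mouse Genome arrays, with hearts of 3 mice mixed per array. Per the labels, the deposited log2 values were made with RMA (background correction, normalization between arrays, 1 value per probe set), whose software is not given in the sources used here. Values ran from 2.95 to 14.9 and the medians of the arrays were 6.36 and 6.35, so the values are not centred per gene. RMA gives both arrays nearly the same distribution and hides a difference in total mRNA. Without detection calls, dim values were judged by the array median alone, and precision is limited by how few arrays there were.

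Of 45101 probe sets, 34945 had 1 gene symbol in the platform annotation and could be named. Genes and lists were chosen with earlier results of these data known. All members were named. Of each related list the 2 highest and 2 lowest genes were named, and of each marker list the highest and lowest, besides genes marked as chosen after their values were seen and Cyp11a1. Members were counted with no filter on dim values. Alternatives were 6 scalings (array medians, quantile, loess of span 0.4, housekeeping genes, hybridisation and poly-A controls), other choices of probe sets, 2 filters on dim genes, a threshold of 1.4, probe sets in place of genes, and the mean in place of the median. The procedure was run on simulated data in which all probe sets of a gene were shifted alike. That run could not test the choice of probe set or which zero is right. Promoter windows came from RefSeq (GRCm38.p6). Python 3.11.15, numpy 2.4.6, pandas 2.3.3, statsmodels 0.14.6 and matplotlib 3.10.9 were used.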

Additional observations from a re-analysis of the deposited data

How the results depend on the processing

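No paired analysis was possible because each group was 1 array, and for the same reason no sample could be left out. The count of 3 genes at least 2-fold higher was 6 after centring on the hybridisation controls, with Idi1 (1.19), Sqle (1.26) and Cyp51 (1.01) added, and 6 where probe sets were counted. It was 3 under every other alternative tried, a threshold of 1.4 included. The 2 filters on dim genes removed none of the 29 genes, so their results were fixed in advance. Taking the probe set brightest in sham was not among these alternatives. The count of 0 genes at least 2-fold lower became 1, Fdft1, with the zero set by the housekeeping genes (-1.42) or by the poly-A controls. The median difference of 0.15 was -0.33 after centring on the housekeeping genes and 0.47 after centring on the hybridisation controls, and under the remaining alternatives it ran from 0.040 to 0.36. These shifts follow from the construction of the centrings, which also move the median of all genes by -0.48 and 0.32. Of the 29 genes, 17 kept their sign after centring on the housekeeping genes and 21 after centring on the hybridisation controls. Averaging all probe sets of a gene moved 7 genes by more than the SD between probe sets, and 27 kept their sign. Which zero is right was not tested. Sham values under the array median (Star and Lrp8) or just above it (Ch25h) limit the folds of these genes.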

Other observations

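Markers of further cell types that a whole heart can hold were listed beside the cholesterol genes. Neutrophil markers had a median difference of 0.45 over 7 genes, with S100a8 highest (8.04 in sham, 9.76 in infarct, difference 1.72) and Ngp lowest (-0.12), and 3 of the 7 were dim in both pools. Their median was -0.033 after centring on the housekeeping genes. Fibroblast markers went both ways, from Postn (1.28), which encodes the matrix protein periostin, to Dcn (-0.34). Of these 8 markers, 2 were at least 2-fold higher (0 with the zero of the housekeeping genes), against 2.57% of all genes as deposited. Endothelial markers lay between -0.15 (Tek) and 0.56 (Pecam1). Macrophage markers ran from 0.23 (Csf1r) to 1.95 (Msr1, a scavenger receptor of lipid-loaded macrophages). Of the 14, 7 were at least 2-fold higher (1, Msr1, after centring on the housekeeping genes), against 2.57% of all genes as deposited.

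Adipocyte markers, listed because fat around the heart can be collected with it, held the lowest value of these lists. Adipoq, which encodes the fat cell hormone adiponectin, read 7.43 in sham and 5.91 in infarct (-1.52), and Lep was highest at 0.20 with dim values in both pools. The median of the 5 adipocyte markers was -0.14, and it was 0.18 after centring on the hybridisation controls. Cardiomyocyte markers lay between -0.39 (Ryr2) and 0.055 (Actc1) by their brightest probe sets, which reach the top of the array's range (14.9). Dimmer probe sets of some of these genes, picked after their values were seen, gave lower values, down to -0.60 for Tnnt2, -0.66 for Ryr2, -0.67 for Myh6 and -0.85 for Ttn. Among steroidogenic markers, Hsd3b1 (0.22) was highest and Cyp21a1 (-0.25) lowest. No member of the cholesterol group was compared within any of these cell types, and their part in its differences was not tested.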
